A study of Mus musculus with 2 samples.

Results

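Mir196a-1, Mir196a-2, Mir196b and Mir615 are the microRNA (miRNA) genes that lie in the Hox clusters of the mouse beside Mir10a and Mir10b. They were chosen by gene symbol, matched to the Ensembl identifiers of the count rows through GENCODE M21, and all 4 had a row among the 1973 miRNA gene rows. The data came from neural tube of B6NCrl mouse embryos at 11.5 days (E11.5), the structure that forms brain and spinal cord, and RNA shorter than 30 nt was sequenced. There was 1 group of 2 biological replicates, both labelled healthy and with no treatment named, each a pool of male and female embryos (109 embryos in replicate 1 and 88 in replicate 2). Pools of this size give no value for a single embryo or for a level along the body axis. With 1 group there was no condition to compare, so levels are described and the 2 libraries are set against each other.

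Hox genes encode transcription factors that give cells their position along the head-to-tail axis, and genes at the 5′ ends of the clusters act in the more posterior body. A miRNA is cut from a hairpin transcript as a short strand from its 5′ arm (5p) or 3′ arm (3p) and lowers the output of mRNAs that pair with its seed, bases 2 to 8. The miR-196 family is known for repressing Hox mRNAs such as Hoxb8, and its genes are also transcribed in posterior mesoderm and limb. Mir615 is known as a miRNA of a Hoxc5 intron.

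The mature sequences are shown because they decide which reads could be assigned to a gene. They are RefSeq sequences (GRCm38.p6, the assembly also called mm10), 5′ to 3′, with the seed in capitals, and all 4 genes matched the table.
miR-196a-5p (from Mir196a-1 and from Mir196a-2): uAGGUAGUuucauguuguuggg
miR-196b-5p (from Mir196b): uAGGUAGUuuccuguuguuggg
miR-615-3p: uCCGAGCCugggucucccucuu
miR-615-5p: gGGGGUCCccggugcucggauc

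The 3 miR-196 genes shared the seed AGGUAGU, and no other gene of the RefSeq miRNA table had it. miR-196a-5p and miR-196b-5p differed by A12C alone (counted from 1 at the 5′ end, the base of miR-196a first), which lies outside the seed. Neither seed of Mir615 was found in a second mature miRNA of the table. The letters at bases 2 to 7 of miR-196, AGGUAG, stood at bases 3 to 8 of 11 of 1679 mature miRNA names (0.655%). Of those, 10 were let-7 or miR-98, a family known to accumulate as tissues differentiate, and miR-1961 was the other. let-7g-5p is shown with those letters in capitals, so that the shift by 1 base against miR-196 can be seen.
let-7g-5p: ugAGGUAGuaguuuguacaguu

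The hairpins of the miR-196 genes are shown with the 5p mature sequence in capitals. For Mir196a-1 and Mir196a-2 these capitals are also the longest run that both hairpins held.
Mir196a-1: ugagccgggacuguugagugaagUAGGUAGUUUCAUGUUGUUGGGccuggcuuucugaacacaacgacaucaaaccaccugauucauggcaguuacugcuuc
Mir196a-2: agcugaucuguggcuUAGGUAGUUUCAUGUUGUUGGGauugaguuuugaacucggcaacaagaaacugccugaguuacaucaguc
Mir196b: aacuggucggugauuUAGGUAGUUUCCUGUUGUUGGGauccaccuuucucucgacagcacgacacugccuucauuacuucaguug

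Mir196a-1 and Mir196a-2 shared 22 nt, exactly the length of miR-196a-5p, and differed on both sides of it. A read of that miRNA with no further hairpin base therefore maps equally well to both genes. Reads mapped to several places were listed in a row of their own and were counted for no gene, so the counts of these 2 genes leave such reads out. Counts of Mir196a-1 and Mir196a-2 can hold reads of the 3p arms, whose mature sequences differed at 17 positions when compared without gaps, or reads that run past the shared stretch. The files do not tell the arms apart. Mir196b shared at most 12 nt with either hairpin, and no other hairpin of the table shared more than 12 nt with an arm of Mir615. No run of mature length shared with another hairpin was thus found for Mir196b or for the mature arms of Mir615, while the levels of Mir196a-1 and Mir196a-2 cover only the reads that could be placed.

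By position, the miR-196 genes lay at the 5′ side of the group 9 Hox genes, and Mir615 lay further 3′. Coordinates are those of GENCODE M21 on GRCm38. Mir196b (ENSMUSG00000065443.1) was on the minus strand of chr6:52230081-52230165, downstream of Hoxa10 by 1031 bases. It overlapped an exon in each of 2 noncoding Hoxa9 transcripts and lay in intron 1 of another. Mir196a-2 (ENSMUSG00000065488.1) was on the plus strand of chr15:102973350-102973434, 1456 bases after Hoxc10 and 3004 bases before Hoxc9, in intron 1 of a noncoding Hoxc5 transcript. Mir196a-1 (ENSMUSG00000065546.1) was on the plus strand of chr11:96265164-96265265, 6191 bases before Hoxb9, with no gene annotated over it on that strand. Mir615 (ENSMUSG00000076010.1) was on the plus strand of chr15:103014910-103015001, in intron 1 of the protein-coding Hoxc5 transcript, between Hoxc6 and Hoxc4. All 4 had the strand of the Hox genes around them.

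Measured from the group 13 end, Mir196b stood at 29.2% of the length of its cluster, Mir196a-1 at 40.8% and Mir196a-2 at 45.2%. Mir615 stood at 81.1%, while Mir10a stood at 70.7% and Mir10b at 59.7%. These are percentages of each cluster's own length, and the clusters end differently, Hoxc at Hoxc4 and Hoxb and Hoxd at group 1, so they do not order Mir615 against the Mir10 genes. By Hox group, Mir615 lay between Hoxc6 and Hoxc4, Mir10a between Hoxb5 and Hoxb4, and Mir10b inside the annotated spans of both Hoxd4 and Hoxd3. The name "posterior" thus describes the miR-196 genes by position but not Mir615.

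**Figure D1:**
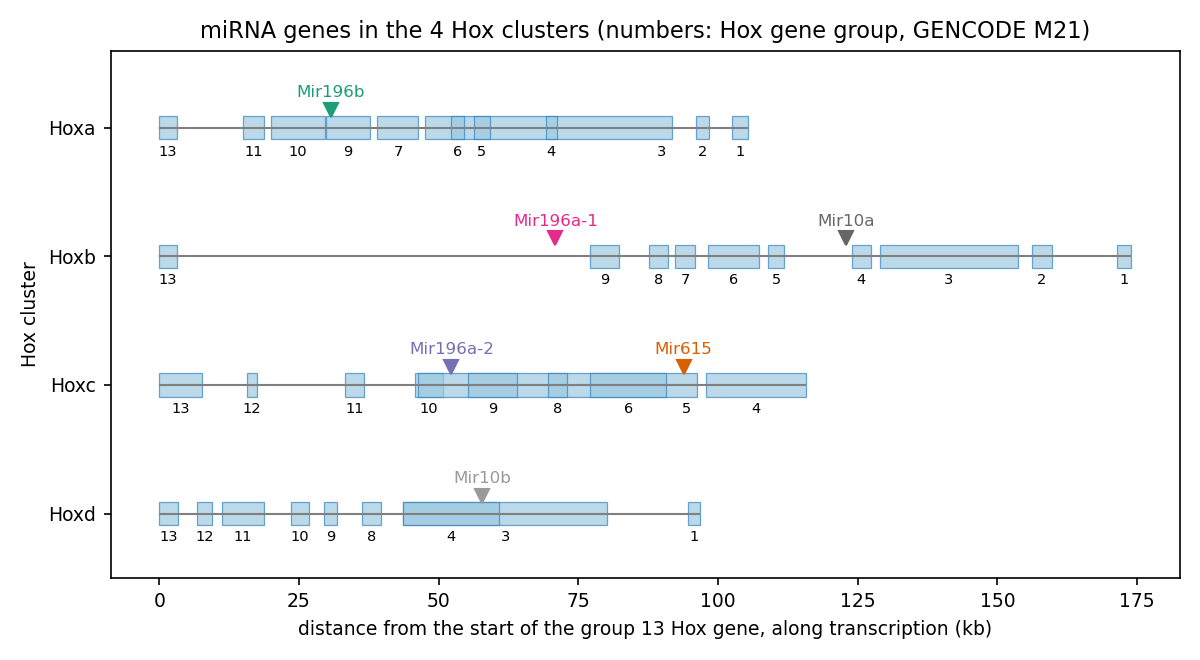
Map of the Hoxa, Hoxb, Hoxc and Hoxd clusters, with distance in kb along transcription from the start of the group 13 gene on the x axis and 1 cluster per line. Boxes are annotated Hox gene spans labelled with their group number, triangles are miRNA genes, and Mir615 at 81.1% of Hoxc lies far to the right of Mir196a-2 at 45.2%.

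The libraries held 3708662 (replicate 1) and 4055883 (replicate 2) reads on the own strand of miRNA genes, and levels are given per 1000000 of these counts (CPM). Reads mapped to several places numbered 2153217 and 2088167. Markers of other tissues that the dissection could hold were present in both libraries, and scaled by total counts the sum of each of the 5 lists was larger in replicate 1. Scaled with TMM or DESeq2 size factors, 2 common ways of scaling libraries, the neural sum turned lower in replicate 1 (ratio of replicate 1 to replicate 2 of 1.16 by total counts, 0.953 and 0.986), as did the endothelial one (1.12, 0.918 and 0.951), and the other 3 stayed higher. The 7 genes listed for limb and somite mesenchyme with a row summed to 24358 CPM in replicate 1 and 17966 CPM in replicate 2. Mir214 and Mir143 led them. Whether the genes of this list mark those tissues alone was not tested. The 10 neural genes summed to 8724 and 7520 CPM, led by Mir92b and Mir137. Muscle genes summed to 1398 and 793 CPM, nearly all from Mir206, with Mir133a-1 and Mir133a-2 listed at 0 in both libraries. Copies of one mature miRNA, such as these 2 and those of Mir9 and Mir124a, can lose reads to the row of reads mapped to several places, so their counts, and the sums they enter, cover only placed reads. The endothelial Mir126a stood at 24945 and 22302 CPM, and the 3 blood genes at 786 and 559 CPM. The part of these tissues in the levels that follow was not tested, and in bulk tissue fewer cells of a type cannot be told apart from less RNA per cell.

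Mir615 was the most abundant of the 4 genes in replicate 1. Its counts were 51750 in replicate 1 and 46629 in replicate 2, or 13954 CPM (95% exact Poisson interval 13834 to 14075) and 11497 CPM (11393 to 11602), with a mean of 12725 ± 1737 CPM (SD, n = 2). It ranked 13 of 1973 gene rows in replicate 1 and 14 in replicate 2, where 1249 rows had no count in either library. Ranks here and below are by placed reads, so genes that share a mature sequence can rank too low. The Poisson intervals reflect counting alone and take reads as independent, and the spread between the libraries was far wider than they are. Whether the reads are independent molecules was not tested.

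Mir196b carried 86.9% of the counted miR-196 reads in replicate 1 and 90.2% in replicate 2. Its counts were 39274 in replicate 1 and 46760 in replicate 2, or 10590 CPM (95% exact Poisson interval 10485 to 10695) and 11529 CPM (11425 to 11634), with a mean of 11059 ± 664 CPM (SD, n = 2). It ranked 19 in replicate 1 and 13 in replicate 2. The ranges of Mir615 and Mir196b over the 2 libraries overlapped, so their order was not settled beyond their spread.

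Mir196a-2 had 5751 counts in replicate 1 and 4891 in replicate 2, or 1551 CPM (95% exact Poisson interval 1511 to 1591) and 1206 CPM (1172 to 1240), with a mean of 1378 ± 244 CPM (SD, n = 2). Mir196a-1 had 153 and 175 counts, or 41.3 CPM (35.0 to 48.3) and 43.1 CPM (37.0 to 50.0), with a mean of 42.2 ± 1.34 CPM (SD, n = 2). Both libraries put Mir196a-2 below Mir196b and above Mir196a-1, with no overlap of ranges. The 2 miR-196a genes together held 13.1% of miR-196 counts in replicate 1 and 9.78% in replicate 2, which covers the placed reads only. These percentages are thus not the balance of miR-196a to miR-196b in the tissue.

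All 4 genes passed the filter of at least 10 summed counts, and mature sequences of both arms of each were 22 nt long, so no scaling by length was applied. How evenly the library preparation captures different miRNAs was not measured, and ratios between genes are ratios of counts. Reads on the opposite strand of the 4 genes were 2 in all, both at Mir196a-2 in replicate 1 (0.0348% of the reads there on either strand). A count of 0 was taken to allow up to 3 reads. On that setting the limit for Mir196b and Mir615 was at most 0.00764% in either library, and for Mir196a-1, with its few reads, 1.96%.

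**Figure D2:**
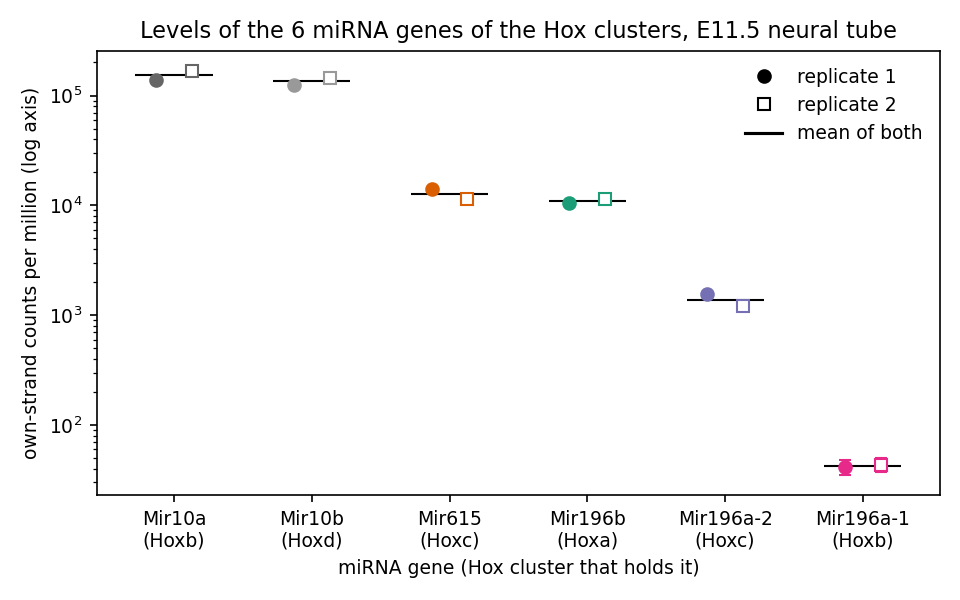
Own-strand CPM (log y axis) of the 6 miRNA genes of the Hox clusters, with filled circles for replicate 1, open squares for replicate 2, bars for 95% exact Poisson intervals and lines for the mean. Mir615 at 11497 and 13954 CPM and Mir196b at 10590 and 11529 CPM overlap, and Mir196a-1 lies lowest at 41.3 and 43.1 CPM. Values of Mir196a-1 and Mir196a-2 cover placed reads only.

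Together the 4 genes held 2.61% of counts in replicate 1 (95% Wilson interval 2.60 to 2.63) and 2.43% in replicate 2 (2.41 to 2.44), a mean of 2.52% ± 0.132 (SD, n = 2). They were a small part of the Hox cluster miRNA reads, at 8.98% in replicate 1 and 7.20% in replicate 2. Mir10a and Mir10b, the 2 other Hox cluster miRNA genes with a row, gave the rest with 26.5% and 31.3% of all counts. The ratio of Mir10a to Mir615 was 9.96 in replicate 1 and 14.5 in replicate 2, and both genes of the Mir10 pair lay above all 4 in each library. Within the 4, Mir615 gave 53.4% and 47.4% of the counts and Mir196b 40.5% and 47.5%.

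The ratio of Mir615 to Mir196b, which does not depend on how a library is scaled, was 1.32 in replicate 1 and 0.997 in replicate 2. Mir615 took 56.9% of the reads of these 2 genes in replicate 1 (95% Clopper-Pearson interval 56.5 to 57.2) and 49.9% in replicate 2 (49.6 to 50.3). Replicate 1 thus held more Mir615 than Mir196b, and replicate 2 held about equal numbers. Mir615 and Mir196a-2 kept a closer ratio than that, 9.00 in replicate 1 (95% interval 8.76 to 9.25) and 9.53 in replicate 2 (9.26 to 9.82). These intervals did not overlap either, and the counts of Mir196a-2 cover placed reads only.

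The ratio of Mir196b to Mir196a-2 was 6.83 in replicate 1 and 9.56 in replicate 2, and of the 6 pairs of members it moved most, by a factor of 1.40. In counts, Mir196b exceeded Mir196a-1 by 257-fold (95% interval 219 to 303) in replicate 1 and 267-fold (230 to 312) in replicate 2. The 2 ratios differed within counting error. Counts of Mir196a-1 and Mir196a-2 cover placed reads only, so ratios that involve them are not ratios of the miRNAs in the tissue. Of the 6 pairs of members, 3 had intervals that lay apart in the 2 libraries, and 3 that involve Mir196a-1 overlapped, where its 153 and 175 counts leave the widest intervals. These comparisons are between 2 libraries, with no test over samples.

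**Figure D3:**
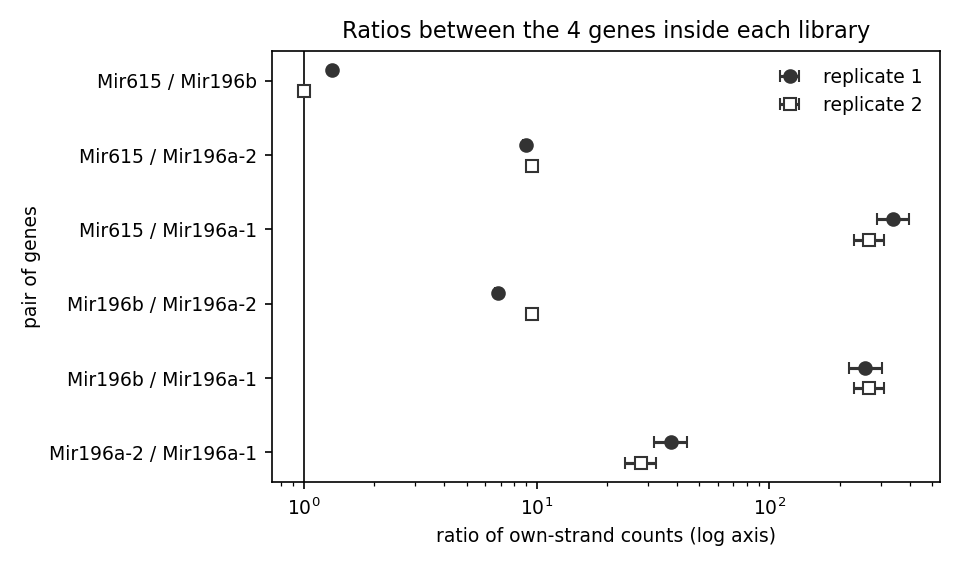
Ratio of own-strand counts (log x axis) for each of the 6 pairs of members, filled circles for replicate 1 and open squares for replicate 2, with 95% intervals from the exact binomial share. The ratio of Mir615 to Mir196b is 1.32 and 0.997, while that of Mir196b to Mir196a-1 (257 and 267) has overlapping intervals. Counts of Mir196a-1 and Mir196a-2 cover placed reads only.

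A two-sided exact binomial test was then run per gene on the split of its reads between the libraries, with Benjamini-Hochberg adjustment over 444 genes (10 summed counts or more). A gene was called at an adjusted p below 0.05. Of all genes tested, 53.2% were called, 45.3% as higher in replicate 1 and 7.88% as higher in replicate 2, and 3 of the 4 members were called, 2 as higher in replicate 1 and 1 as higher in replicate 2. With 4 genes this share is not a result about them. The test sets these 2 libraries against counting noise, takes reads as independent and says nothing of conditions.

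Scaled by total counts, Mir196a-2 was higher in replicate 1 by 1.29-fold (log2 ratio 0.36, exact binomial adjusted p = 1.65e-37) and Mir615 by 1.21-fold (0.28, exact binomial adjusted p = 4.16e-201). Mir196b was higher in replicate 2 by 1.09-fold (log2 ratio of replicate 1 over replicate 2 -0.12, exact binomial adjusted p = 1.28e-34). Mir196a-1 had a log2 ratio of -0.06 and was not called (exact binomial adjusted p = 0.813). Mir196b was thus the member called as higher in replicate 2.

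The median of all 444 genes stood at a log2 ratio of 0.27 under this scaling, and that of the 4 members at 0.11. Relative to the median gene, Mir615 lay at 0.01 and Mir196a-2 at 0.09, close to it, while Mir196b lay at -0.39 and Mir196a-1 at -0.33. Mir196b thus stood on the same side as Mir10a at -0.53 and Mir10b at -0.48. Before the median was subtracted, the quartiles of all tested genes were log2 ratios of -0.0021 and 0.55. Mir196b, Mir196a-1, Mir10a and Mir10b lay below the lower one, and Mir615 and Mir196a-2 lay between them. For Mir196a-1, at -0.06 with a counting SD of 0.16, the place below this quartile was within counting error.

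**Figure D4:**
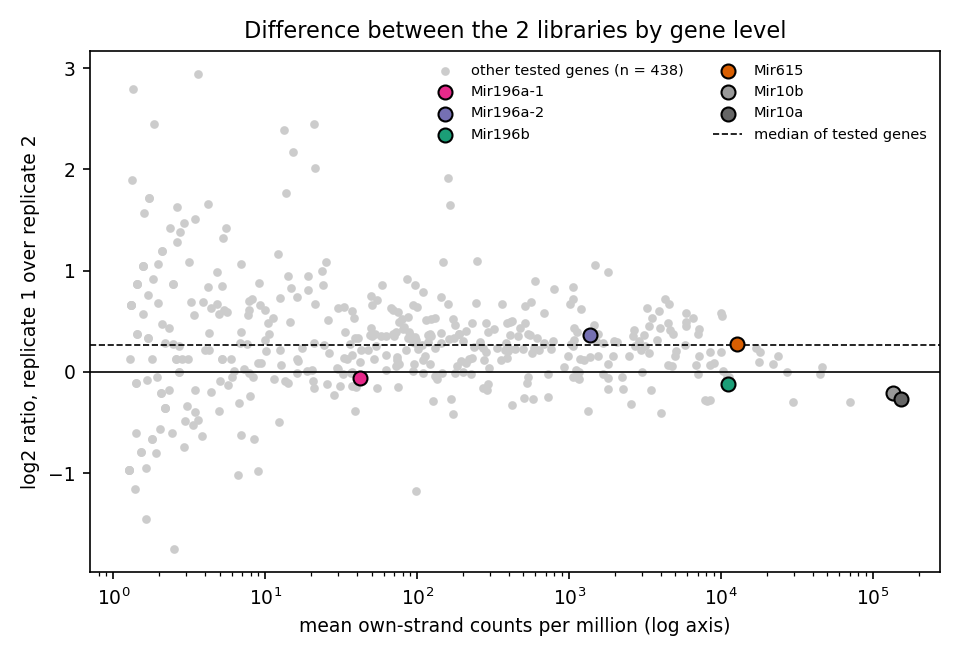
Log2 ratio of replicate 1 over replicate 2 against mean CPM (log x axis) for the 444 tested genes, with the 6 Hox cluster genes coloured, the solid line at equality and the dashed line at the median of 0.27. Mir615 lies on the dashed line, and Mir196b, Mir196a-1, Mir10a and Mir10b lie below the solid one, Mir196a-1 within counting error of it.

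Whether Mir615 was called depended on the scaling. Under TMM, edgeR's trimmed mean of M values, all log2 ratios moved by -0.28 and Mir615 came to -0.0050 and was not called (exact binomial adjusted p = 0.716). DESeq2's size factors moved them by -0.23 and left Mir615 at 0.04, and the total without Mir10a and Mir10b left it at 0.18, both called. Mir196a-2 stayed positive (0.08 with TMM, 0.13 with size factors, 0.27 without the Mir10 pair) and Mir196b negative (-0.41, -0.36 and -0.22) under these 3, and each was called. Among all calls, 85.2% were higher in replicate 1 by total counts, 46.1% with TMM, 54.5% with size factors and 75.9% without the Mir10 pair. The distances between the members stay as they are under any of these scalings.

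**Figure D5:**
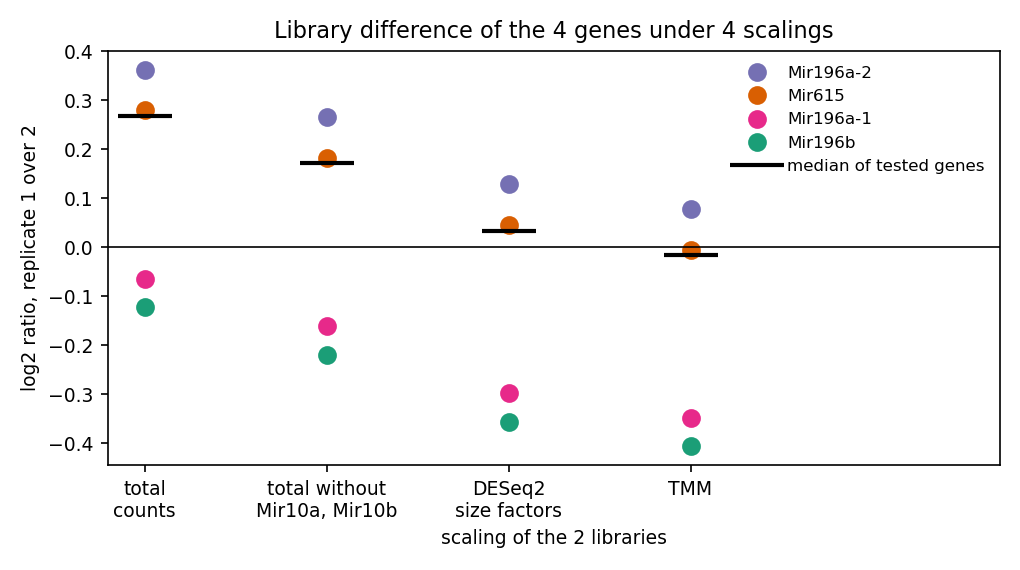
Log2 ratio of replicate 1 over replicate 2 for the 4 genes (points) and the median tested gene (bars) under 4 scalings of the libraries on the x axis. A change of scaling moves all genes and the median by the same amount. Mir615 lies close to the median, from 0.28 to -0.0050, and Mir196b runs from -0.12 to -0.41 below it.

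Genes whose level in both libraries was nearest to each member were found by Euclidean distance of log2(CPM + 1) over the 2 libraries. For Mir196b these were Mir26b (10694 and 11063 CPM, distance 0.06) and Mir182 (11071 and 11488 CPM, distance 0.06). The same genes were nearest to Mir615, Mir182 at the larger distance of 0.33 and Mir26b at 0.39. For Mir196a-2 they were Mir301 (1693 and 1229 CPM, distance 0.13) and Mir188 (1445 and 1307 CPM, distance 0.15). For Mir196a-1 they were Mir488 (43.7 and 40.9 CPM, distance 0.11) and Mir204 (37.2 and 41.4 CPM, distance 0.16). With 2 libraries this likeness is one of level alone.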

How the data were processed

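The authors deposited raw read counts per miRNA gene, 1 file per library, for mm10 and GENCODE M4, per the file headers. For aligner, counter and trimming, nothing is given in the sources used here. The 3 unnamed columns were read from their values as either, own and opposite strand, and own-strand counts were used. Rows that name no gene held 56.5% (replicate 1) and 47.0% (replicate 2) of reads and were left out of totals. In that order of libraries, unmapped reads were 24.5% and 15.2% and reads outside the counted genes 6.83% and 4.49%. Reads mapped to several places were 25.2% and 27.3%.

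Symbols and positions came from GENCODE M21 by identifier (1894 of 1973 rows matched) and sequences from RefSeq. CPM is the count per 1000000 own-strand gene counts. Libraries were compared as stated above, with a pseudocount of 0.5 in log2 ratios. The p-values set the 2 libraries against counting noise only. Named genes were the members, other Hox cluster miRNA genes, 2 nearest genes each and 2 leading markers per list. Members and lists were chosen with earlier results of these data known. Alternatives changed the denominator, strand, scaling (TMM, DESeq2), filter and replicates. Tools were edgeR 4.0.16, DESeq2 1.42.0, R 4.3.3, Python 3.11.15, numpy 2.4.6, pandas 2.3.3, scipy 1.17.1 and matplotlib 3.10.9.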

Additional observations from a re-analysis of the deposited data

How the results depend on the processing

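The level of each gene followed the denominator, as its construction requires. Per 1000000 of all reads listed, the means were 6079 for Mir615, 5356 for Mir196b, 657 for Mir196a-2 and 20.4 for Mir196a-1, and the share of the 4 genes was 1.21%. With reads mapped to several places added to the denominator they were 8209, 7155, 889 and 27.3, and 1.63%. Without Mir10a and Mir10b in the total they were 17858, 15593, 1932 and 59.5, and 3.54%. Leaving out a replicate moved the ratio of Mir615 to Mir196b between 0.997 and 1.32, across equality. TMM turned the log2 ratio of Mir615 to -0.0050 and ended its call, so that 2 members were called, beside 178 of all 444 genes tested. With 4 genes this change is not a result about them. Of 82 alternative values, 65 met the rule for no change. For log2 ratios the rule was the same direction and call. For counts of calls it was a value within 1.5 times of the one reported. For levels, shares and ratios it was a move smaller than the SD between replicates, which leaving out 1 of 2 replicates gives by construction. The ratio of Mir615 to Mir196b also had to stay on the same side of 1, and its value of 0.997 without replicate 1 was labelled as reversed. Filters on counts cannot change a log2 ratio, and reads on either strand cannot change the ratio of Mir615 to Mir196b. Neither gene had reads on the opposite strand. Part of the 65 was thus fixed in advance. The number of genes called ran from 178 of 444 tested (TMM) to 245 of 454 (either strand), against 236 of 444 as reported. Without a filter on low counts it was 208 of 1973. Depth limits Mir196a-1, whose 153 and 175 counts give its log2 ratio a counting SD of 0.16. No paired analysis was possible because there was 1 group.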
